A study of Arabidopsis thaliana with 12 samples.

Results

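The beta-amylases and the other starch hydrolases of Arabidopsis were followed as 10 genes: BAM1, BAM2, BAM3, BAM4, BAM5, BAM6 and BAM9, the alpha-amylase AMY3, and the debranching enzymes ISA3 and LDA. They were picked by their locus identifiers, with earlier results of these data known, and make up 10 of the 20869 genes that had a value. Whole seedlings were compared in 4 genotypes of the Col background, each with 3 libraries of polyadenylated RNA: the wild type (WT), the single mutant smxl5-1, the double mutant smxl4-1 smxl5-1, and smax1-2. All seedlings were 7 days old and had grown on half-strength MS plates at a constant 21 °C in days of 12 h light and nights of 12 h; 15 seedlings were pooled for each library. The time of day at harvest is not given in the sources used here. In whole seedlings, fewer cells of a type and less RNA per cell cannot be told apart.

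Leaf starch is built in the chloroplast by day and broken down at night. Glucan phosphorylation (GWD1, PWD) loosens the granule surface, beta-amylases then cut maltose from the chain ends, debranching enzymes (ISA3, LDA) remove the branches, and the maltose leaves the chloroplast through MEX1. BAM1 and BAM3 are the chloroplast beta-amylases with the best established activity in leaves, BAM2 and BAM6 are further plastid members, and BAM4 and BAM9 are plastid proteins that lack beta-amylase activity. BAM5 differs in place, being an extraplastidic beta-amylase long known from the phloem. SMXL4 and SMXL5 are nuclear proteins needed for phloem formation, and SMAX1 is the relative that karrikin signalling removes in seedlings.

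The deposited tables give no coordinates, so locations and upstream sequence were read from the TAIR10.1 reference. On the plus strand lie BAM1 (AT3G23920, chr3:8641181-8644449), BAM4 (AT5G55700, chr5:22551734-22554964), ISA3 (AT4G09020, chr4:5783909-5789100) and LDA (AT5G04360, chr5:1221448-1228841). On the minus strand lie AMY3 (AT1G69830, chr1:26288228-26293173) and BAM6 (AT2G32290, chr2:13714516-13717002). The 200 bases before the annotated start are shown for BAM3, BAM5 and BAM9, whose levels set genotypes apart most plainly, and for BAM2, which shares a motif with BAM9. They are printed 5′ to 3′ on the strand of the gene, and capitals mark the letters searched for. The BAM3 gene (AT4G17090, named CT-BMY in RefSeq) spans chr4:9604962-9607402 on the minus strand with 4 exons, and BAM5 (AT4G15210) spans chr4:8666334-8669526 on the minus strand with 7 exons in its longest transcript. BAM9 (AT5G18670, BMY3 in RefSeq) spans chr5:6225956-6228195 on the plus strand with 3 exons, and BAM2 (AT4G00490) spans chr4:222289-225131 on the plus strand with 9 exons.
BAM3 upstream, chr4:9607403-9607602, minus strand: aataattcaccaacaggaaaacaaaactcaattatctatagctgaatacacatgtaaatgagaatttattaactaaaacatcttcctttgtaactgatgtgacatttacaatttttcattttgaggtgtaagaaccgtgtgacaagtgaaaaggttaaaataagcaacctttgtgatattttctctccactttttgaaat
BAM5 upstream, chr4:8669527-8669726, minus strand: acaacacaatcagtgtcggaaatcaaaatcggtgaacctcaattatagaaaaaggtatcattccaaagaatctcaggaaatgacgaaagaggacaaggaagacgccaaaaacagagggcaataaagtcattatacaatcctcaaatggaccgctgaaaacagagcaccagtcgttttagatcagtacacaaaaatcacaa
BAM9 upstream, chr5:6225756-6225955, plus strand: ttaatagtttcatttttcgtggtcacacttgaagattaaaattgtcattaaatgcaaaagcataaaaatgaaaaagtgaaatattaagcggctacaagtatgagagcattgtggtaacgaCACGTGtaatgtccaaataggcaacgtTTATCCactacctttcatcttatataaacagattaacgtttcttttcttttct
BAM2 upstream, chr4:222089-222288, plus strand: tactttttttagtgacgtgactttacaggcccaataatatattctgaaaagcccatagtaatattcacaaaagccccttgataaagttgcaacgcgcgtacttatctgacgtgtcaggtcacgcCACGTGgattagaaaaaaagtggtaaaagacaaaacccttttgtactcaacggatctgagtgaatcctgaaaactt

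Both strands of these windows were searched for the G-box CACGTG, the evening element AAAATATCT of genes that peak late in the day, and TTATCC, the core of an element linked to sugar repression. The G-box stood in 2 of the 10 windows, those of BAM2 (76 to 71 bases before the start) and BAM9 (80 to 75 bases), against 5.64% of the 27437 protein-coding genes. TTATCC stood in BAM9 (53 to 48 bases) and, on the opposite strand, in LDA (12 to 7 bases), against 10.1% of genes. The evening element stood in ISA3 alone, on the opposite strand (39 to 31 bases), against 1.92% of genes. The windows of BAM3 and BAM5 held none of the 3 strings, which says only that these letters are not in these windows.

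The level of a gene is given in FPKM, a fragment count scaled to transcript length and library size, so levels are per length and can be set side by side between genes. The deposited tables list assembled transcript pieces, and a gene's value is the sum of its pieces with each FPKM scaled to the share of the reference transcript that the piece covers. A gene without a listed piece was set to 0, which is not a measured absence. Tests were made with limma on log2(FPKM + 1) for 19656 genes, and genes with a p under 0.05 after Benjamini-Hochberg adjustment are said to be called. Each library held 27825 to 31919 pieces and gave 18628 to 19022 genes a value. The tables hold no read counts, so the depth of each library is unknown. The share of pieces that matched a reference transcript completely was 47.2% in smxl5-1 replicate 2 and 45.6% in double mutant replicate 1, and 31.8% to 42.7% in the other 10 libraries. The transcripts of the mutated genes did not mark the labels by a loss: SMXL5 read 40.0 to 50.6 FPKM in the libraries labelled smxl5-1 and 9.0 to 18.2 FPKM in those labelled smxl4-1 smxl5-1, against 3.47 to 5.18 FPKM in WT. SMAX1 was lower in the 3 libraries labelled smax1-2 (15.1 to 18.2 FPKM) than in WT (21.3 to 22.5 FPKM), without passing the test (log2 fold change -0.35, adjusted p = 0.712). SMXL4 was not lower in the double mutant (2.75 to 4.85 FPKM) than in WT (1.81 to 3.01 FPKM).

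Across the 4 genotypes, 0 of the 10 genes passed the F test, which called 2.06% of all genes tested. At an unadjusted p under 0.05, 5 of the 10 passed (BAM1, BAM2, BAM3, BAM5 and BAM9), against 16.1% of all genes. The smallest adjusted p values belonged to BAM5 (0.0746) and BAM3 (0.0799). Of the 60 tests of 10 genes in 6 pairs of genotypes, 1 was called, BAM3 in the double mutant against smax1-2. The shares of all genes called were 0.351% for smxl5-1 against WT, 1.13% for the double mutant against WT, 0.0356% for smax1-2 against WT, 2.99% for the double mutant against smxl5-1, 1.55% for the double mutant against smax1-2 and 0.224% for smxl5-1 against smax1-2. At an unadjusted p under 0.05, the same 6 comparisons held 3, 5, 2, 2, 3 and 1 of the 10 genes, against 12.2%, 11.9%, 6.77%, 17.1%, 11.9% and 11.8% of all genes. Comparisons that name the same genotype share its 3 libraries.

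**Figure D1:**
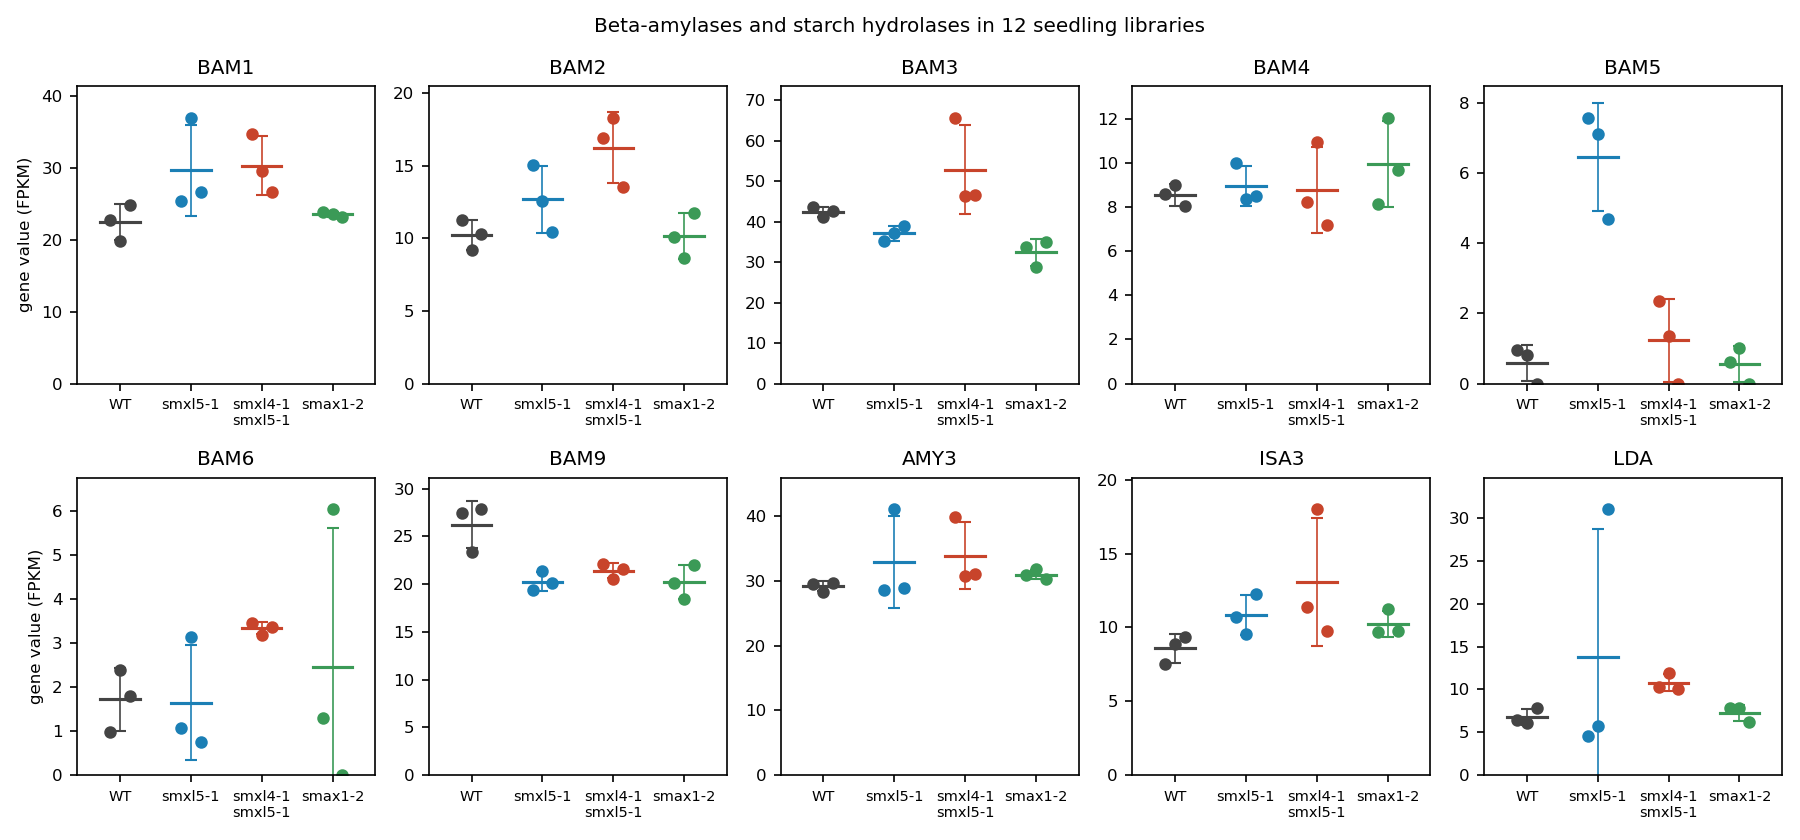
Gene value in FPKM (y axes, each from 0) of the 10 genes in every library, by genotype (x axes); points are libraries, bars the mean and SD of n = 3. BAM3 in smax1-2 lies between 28.7 and 34.9 FPKM and in the double mutant between 46.4 and 65.6 FPKM, BAM5 lies above 4 FPKM in smxl5-1 libraries alone, and BAM9 is highest in WT.

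BAM3, the chloroplast beta-amylase of night-time starch breakdown in mesophyll, had the highest mean of the 10 genes in every genotype. The 3 WT libraries gave 43.5, 41.1 and 42.6 FPKM, and those of smxl5-1 gave 35.1, 37.2 and 38.8 FPKM. Double mutant libraries gave 65.6, 46.4 and 46.5 FPKM, and those of smax1-2 gave 33.7, 28.7 and 34.9 FPKM. No 2 genotypes overlapped: every smax1-2 library lay below every smxl5-1 library, these below WT, and WT below the double mutant. An order with all 6 pairs apart was seen for 25 of the genes tested (0.127%). For BAM3 it depends on the length scaling, because smax1-2 and smxl5-1 were separated only narrowly (34.9 against 35.1 FPKM). Before that scaling the piece read 37.25 FPKM in smax1-2 replicate 3 and 35.28 in smxl5-1 replicate 1, so these 2 genotypes overlapped. BAM3 was assembled as 1 complete piece in all 12 libraries, covering 93.8% to 100% of the reference length.

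The called difference was between the double mutant (mean 52.8 ± 11.1 FPKM, SD, n = 3) and smax1-2 (32.5 ± 3.32 FPKM, SD, n = 3). It amounted to a log2 fold change of 0.67 (SE 0.13, 95% interval 0.38 to 0.96, adjusted p = 0.0357). The call was lost without any one of 5 of the 6 libraries concerned: adjusted p was 0.0549 without double mutant replicate 1, 0.0565 without its replicate 3, and 0.0977, 0.118 and 0.0789 without smax1-2 replicates 1, 2 and 3. It was kept without double mutant replicate 2 (0.0497), and the fold change stayed between 0.51 and 0.75 throughout. The call was also lost with a plain sum of FPKM (0.62, adjusted p = 0.225), and with other scalings, complete and contained pieces alone or a fit on the 2 groups. Keeping complete and contained pieces alone leaves every BAM3 value as it was, so that loss is not a change in the BAM3 level. The double mutant against smxl5-1 gave 0.48 (SE 0.13, adjusted p = 0.0823). Against WT, the log2 fold change was 0.29 in the double mutant (adjusted p = 0.420), -0.19 in smxl5-1 (0.610) and -0.38 in smax1-2 (0.658), none of them called.

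A gene on the other strand, AT4G17085 (chr4:9604335-9604974), overlaps the last bases of BAM3. Its range was 72.7 to 90.6 FPKM for WT, 45.3 to 86.0 FPKM for smxl5-1 and 74.7 to 89.9 FPKM for smax1-2. In the double mutant it was unlisted in replicates 1 and 2 and stood at 55.7 FPKM in replicate 3. A second gene on that strand, AT4G06665 (chr4:9606803-9607320), encodes a long noncoding RNA and lies wholly inside BAM3. It was unlisted in all genotypes. The strand protocol is not given in the sources used here, and the part of these neighbours in the BAM3 values was not tested.

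BAM1, the stress-responsive beta-amylase that acts with AMY3 in guard cells and under drought, came second among the beta-amylases in the mutants. WT libraries gave 22.8, 19.8 and 24.8 FPKM, and those of smax1-2 gave 23.8, 23.6 and 23.1 FPKM. Levels in smxl5-1 were 25.4, 36.9 and 26.6 FPKM, those in the double mutant 34.8, 29.6 and 26.6 FPKM. All 6 libraries that carry smxl5-1 lay above all WT and smax1-2 libraries, while the 2 genotypes that carry it overlapped each other. The log2 fold change against WT was 0.37 in smxl5-1 (SE 0.15, adjusted p = 0.352) and 0.41 in the double mutant (SE 0.15, adjusted p = 0.296), and 0.07 in smax1-2.

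AMY3, the plastid alpha-amylase that cuts inside glucan chains, gave 29.6, 28.3 and 29.8 FPKM in the WT libraries, against 30.9, 31.8 and 30.3 FPKM in those of smax1-2. For smxl5-1 the libraries read 28.7, 41.1 and 28.9 FPKM, for the double mutant 39.9, 30.8 and 31.0 FPKM. The 2 high values belong to smxl5-1 replicate 2 and double mutant replicate 1, the same libraries in which BAM1 was highest and in which the share of complete pieces was highest. In the other 10 libraries AMY3 kept to 28.3 to 31.8 FPKM. The part of that share in the BAM1 and AMY3 values was not tested. The log2 fold change of AMY3 against WT lay between 0.08 and 0.20 in the 3 mutants, and the 95% interval for the double mutant was -0.12 to 0.51.

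BAM2, another plastid beta-amylase, gave 11.2, 9.19 and 10.3 FPKM in the WT libraries, against 10.1, 8.62 and 11.8 FPKM in those of smax1-2. In smxl5-1 its level was 15.0, 12.6 and 10.4 FPKM per library, in the double mutant 16.9, 18.3 and 13.5 FPKM. The double mutant lay above WT and smax1-2 in all 3 libraries and overlapped smxl5-1. That overlap rests on smxl5-1 replicate 1, where a piece of 315 bases carried 9.86 of the 15.0 FPKM; with effective length that library stood at 9.43 FPKM, and smxl5-1 (at most 12.5) lay below the double mutant (at least 13.4). Its log2 fold change was 0.61 against WT (SE 0.17, 95% interval 0.24 to 0.98, adjusted p = 0.142) and 0.63 against smax1-2 (adjusted p = 0.120). In double mutant replicate 2, a piece shorter than 300 bases carried 6.70 of the 18.3 FPKM. Without that piece the library stood at 11.6 FPKM, still above the highest WT library but inside the range of smax1-2.

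BAM6, a further plastid member, was low and never assembled as a complete transcript. WT libraries gave 0.97, 2.39 and 1.80 FPKM, and those of smxl5-1 gave 1.06, 3.14 and 0.74 FPKM. Levels in the double mutant were 3.46, 3.19 and 3.36 FPKM, those in smax1-2 1.3, 6.04 and 0 FPKM. The double mutant libraries lay above all WT and smxl5-1 libraries, while smax1-2 spread widely on both sides. The separation from smxl5-1 was narrow. With effective length it was lost: double mutant replicate 3 (1.62 FPKM) lay below smxl5-1 replicate 2 (1.64 FPKM). A single piece of 163 bases at 61.1 FPKM gave 5.37 of the 6.04 FPKM in smax1-2 replicate 2. Counting only pieces of at least 300 bases, an alternative chosen after seeing the data, put the double mutant above every other library, but it set smax1-2 replicate 1 to 0 by dropping its single piece of 297 bases, so its test is not read. The log2 fold change of the double mutant against smax1-2 was 0.78 with all pieces (SE 0.61, adjusted p = 0.696) and 0.87 with effective length (adjusted p = 0.393).

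BAM9, a plastid protein of the family without catalytic activity, gave 27.5, 23.4 and 27.8 FPKM in the WT libraries, against 19.3, 21.3 and 20.1 FPKM in those of smxl5-1. For the double mutant the libraries read 22.1, 20.5 and 21.6 FPKM, for smax1-2 20.2, 18.5 and 22.1 FPKM. All 9 mutant libraries (18.5 to 22.1 FPKM) lay below all 3 WT libraries, and the 3 mutants overlapped one another. The same arrangement was seen for 91 of the genes tested (0.463%). The log2 fold change against WT was -0.35 in smxl5-1 (SE 0.10, adjusted p = 0.172), -0.28 in the double mutant (adjusted p = 0.270) and -0.36 in smax1-2 (adjusted p = 0.527). None of the 3 was called, and the 3 comparisons share the WT libraries. The neighbouring gene TLP11 (AT5G18680), which overlaps the end of BAM9 on the other strand, stood at 27.3 to 29.4 FPKM in WT and at 23.8 to 35 FPKM in the mutants.

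BAM4, the other plastid member without activity, which promotes starch breakdown in leaves, had the highest p of the 7 beta-amylases in the F test (0.706, limma, unadjusted). In WT its level was 8.6, 9.03 and 8.05 FPKM per library, in smxl5-1 10.01, 8.35 and 8.49 FPKM. Double mutant libraries gave 8.23, 10.9 and 7.18 FPKM, and those of smax1-2 gave 8.15, 12.1 and 9.69 FPKM. All 4 genotypes overlapped. The 95% interval of the log2 fold change against WT was -0.32 to 0.43 in smxl5-1, -0.36 to 0.40 in the double mutant and -0.20 to 0.56 in smax1-2.

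BAM5, the beta-amylase outside the plastid, had the largest log2 fold changes of the 10 genes, those between smxl5-1 and the other genotypes. The smxl5-1 libraries gave 7.57, 7.11 and 4.70 FPKM. Those of WT gave 0.95, 0.80 and 0 FPKM, those of the double mutant 2.35, 1.36 and 0 FPKM, and those of smax1-2 0.62, 1.02 and 0 FPKM. Every smxl5-1 library lay above every library of the other genotypes, and the other 3 genotypes overlapped with 1 unlisted library each. The assembled pieces differed likewise: they measured 1383 to 1830 bases of the 2006-base reference in smxl5-1, 2 of them complete, and 240 to 1084 bases elsewhere, none complete.

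On the log2(FPKM + 1) scale, which understates the change of low genes, BAM5 differed by 2.27 between smxl5-1 and WT (SE 0.49, 95% interval 1.18 to 3.36, adjusted p = 0.0876). The double mutant against smxl5-1 gave a log2 fold change of -1.88 (SE 0.49, adjusted p = 0.0715), and smxl5-1 exceeded smax1-2 by 2.31 (SE 0.49, adjusted p = 0.112). None of these passed the threshold. Each piece was also weighted by an effective length, which lowers the weight of short pieces. It rests on an assumed fragment length of 200 bases (SD 80). With these weights all 3 differences passed, with adjusted p of 0.0221, 0.0150 and 0.0322, and so did the F test (0.0142). However, BAM5 then reached 1 FPKM only in the smxl5-1 libraries and in double mutant replicate 1 (1.54 FPKM). Elsewhere it stood at 0 to 0.92 FPKM. It thus met the minimum of 1 FPKM in 3 libraries only through smxl5-1, so these 3 differences and the F test are not read as calls. With a plain sum of FPKM, which gives short pieces full weight, all 3 shrank and none was near the threshold: 1.51 for smxl5-1 against WT (SE 1.05, adjusted p = 0.801), -1.03 for the double mutant against smxl5-1 (0.806) and 1.82 for smxl5-1 against smax1-2 (0.740), with an F test at 0.825. The double mutant against WT gave 0.39 for BAM5 (95% interval -0.70 to 1.48), so a difference between them was not detectable with these libraries.

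Phloem markers were set beside BAM5 because of where the protein is known from. The summed level of the 13 of 16 phloem markers that had a value was 299 to 332 FPKM in WT, 242 to 270 in smxl5-1, 325 to 383 in the double mutant and 312 to 376 in smax1-2. NAC045, NAC086 and NEN4 had no value in any library. The order of these sums depends on SWEET11 and SWEET12, sucrose exporters. Without them the sum was 196 to 210 FPKM in WT, 157 to 181 in smxl5-1, 167 to 189 in the double mutant and 207 to 272 in smax1-2. In this sum, which was not planned, both genotypes carrying smxl5-1 lay below WT. Single markers did not all move with it. Of all 12 markers tested, 3 lay above WT in every double mutant library and 1 below, against 12.5% and 6.61% of all genes. In smxl5-1, 1 lay above and 3 below, against 13.6% and 5.37%. SUC2, the sucrose loader of companion cells, stood at 37.6 to 42.4 FPKM in WT, 22.3 to 34.6 in smxl5-1 and 25.4 to 31.1 in the double mutant, while BAM5 was high in smxl5-1 alone of these. The part of phloem markers in the BAM5 values was not tested. Over the 12 libraries, the genes whose log2 levels followed BAM5 most closely, among 15473 genes with a mean of at least 5 FPKM, were RHF2A (AT5G22000), which encodes a RING-type protein (Pearson r = 0.92), AT5G18900 (r = 0.91) and UGT73B5 (AT2G15480), a glucosyltransferase (r = 0.91). RHF2A stood at 43.1 to 45.7 FPKM in smxl5-1 and at 36.0 to 39.1 FPKM elsewhere, and UGT73B5 at 9.89 to 12.3 against 6.44 to 8.93 FPKM. The libraries were shared by all genes compared, and these correlations are descriptions only.

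ISA3, an isoamylase that trims branches from glucans during breakdown, gave 7.50, 8.90 and 9.32 FPKM in the WT libraries, against 10.7, 9.54 and 12.3 FPKM in those of smxl5-1. Levels in the double mutant were 11.4, 18.0 and 9.79 FPKM, those in smax1-2 9.70, 11.2 and 9.78 FPKM. All 9 mutant libraries lay above all 3 WT libraries, an arrangement seen for 233 of the genes tested (1.19%). It was lost for ISA3 when short pieces counted less: smax1-2 replicate 3 stood at 7.45 FPKM with pieces of at least 300 bases and at 8.04 with effective length, below the highest WT library (7.77 and 8.21). The log2 fold change against WT was 0.52 in the double mutant (SE 0.20, adjusted p = 0.322), 0.30 in smxl5-1 (adjusted p = 0.581) and 0.23 in smax1-2 (adjusted p = 0.818), none called. A piece of 118 bases carried 5.69 of the 18.0 FPKM in double mutant replicate 2, which without it stood at 12.3 FPKM.

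LDA, the limit dextrinase that removes the same branches, was assembled in 2 to 6 pieces in every library and never completely. For WT the libraries read 6.41, 6.10 and 7.80 FPKM, for the double mutant 10.3, 12.0 and 10.1 FPKM. In smxl5-1 its level was 4.56, 5.75 and 31.0 FPKM per library, in smax1-2 7.77, 7.79 and 6.21 FPKM. The double mutant lay above all WT and smax1-2 libraries, and smxl5-1 replicate 3 lay far above everything else. In that library a piece of 76 bases listed at 1006 FPKM, with deposited bounds of 356 and 1656, carried 25.2 of the 31.0 FPKM.

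Counting only LDA pieces of at least 300 bases gave 5.04 to 6.10 FPKM in WT, 4.56 to 5.83 in smxl5-1, 7.70 to 8.41 in the double mutant and 6.21 to 7.79 in smax1-2. On that count, chosen after seeing the data, the log2 fold change of the double mutant against smxl5-1 was 0.51 (adjusted p = 0.0450). With all pieces it was 0.15 (SE 0.52, adjusted p = 0.933). Leaving out smxl5-1 replicate 3 from the values with all pieces also brought this difference past the threshold (0.94, SE 0.17, adjusted p = 0.0314). That library is the one already seen to hold the outlying short piece, so neither passing p value is read as a call. Without smxl5-1 replicate 1 or 2 the sign turned, to -0.32 (adjusted p = 0.819) and -0.18 (0.911), so the direction with all pieces depends on which library is left out. The double mutant against WT gave 0.60 with all pieces (SE 0.52, adjusted p = 0.714).

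**Figure D2:**
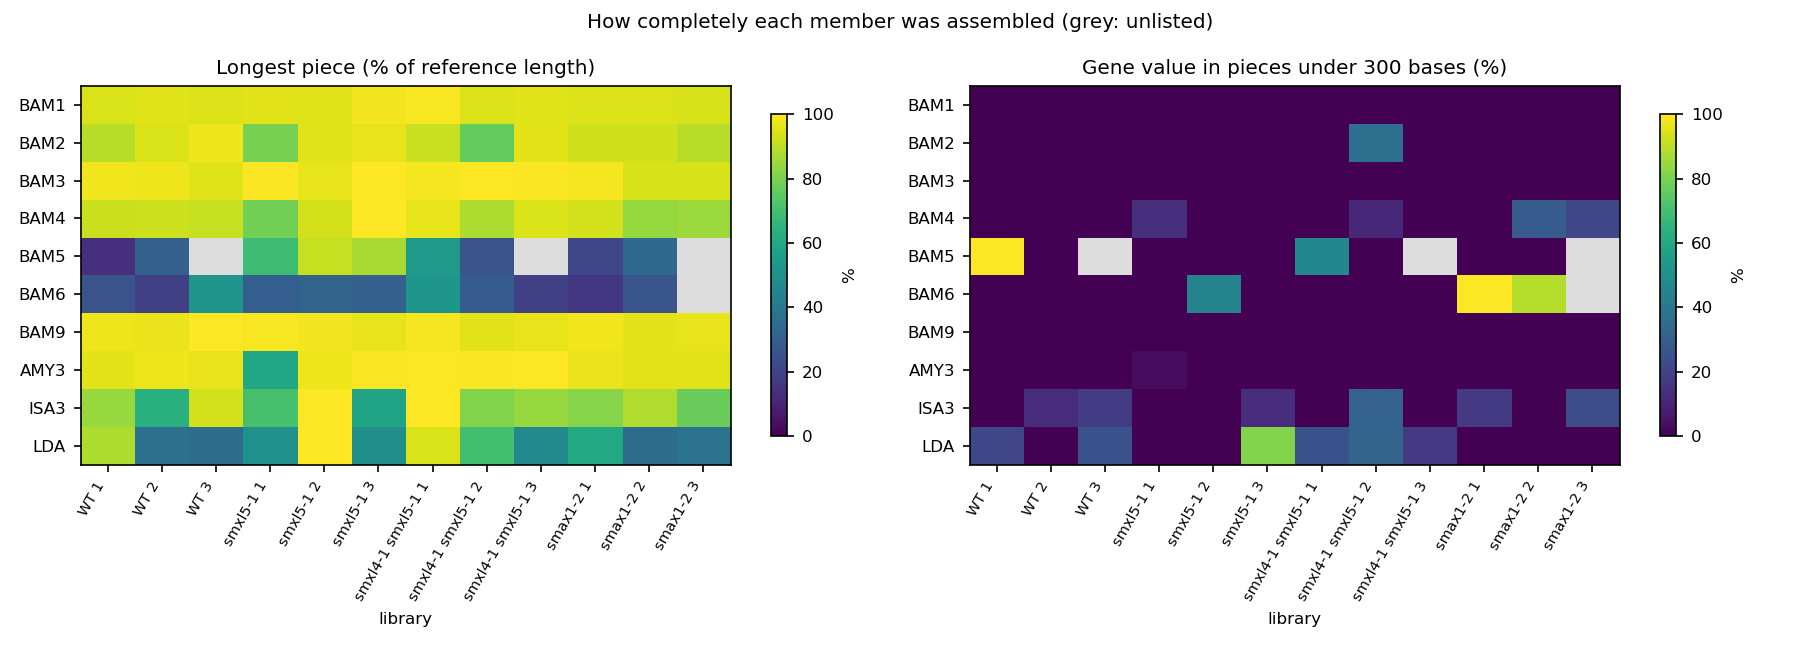
Left, the longest piece of each gene in each library as a percent of its reference transcript; right, the percent of the gene value that lies in pieces under 300 bases; grey marks an unlisted gene. BAM1, BAM3 and BAM9 came as 1 complete piece in all 12 libraries, BAM6 came as fragments in every library that listed it and BAM5 in all but 2, and 81.2% of the LDA value of smxl5-1 replicate 3 lay in a short piece.

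The 10 genes were next read together, comparison by comparison. In the double mutant, 7 of the 10 lay above WT in all libraries (BAM1, BAM2, BAM3, BAM6, AMY3, ISA3 and LDA) and BAM9 lay below, against 12.5% of all genes above and 6.61% below. Their median log2 fold change was 0.40, against 0.07 over all genes tested, and 0 were called. In smxl5-1, 3 lay above WT (BAM1, BAM5, ISA3) and 2 below (BAM3, BAM9), against 13.6% and 5.37% of all genes, with a median of 0.21 against 0.07. In smax1-2, 2 lay above (AMY3, ISA3) and 2 below (BAM3, BAM9), against 12.9% and 4.43%, with a median of 0.03 against 0.09. The medians are descriptions of these 10 genes and were not tested.

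**Figure D3:**
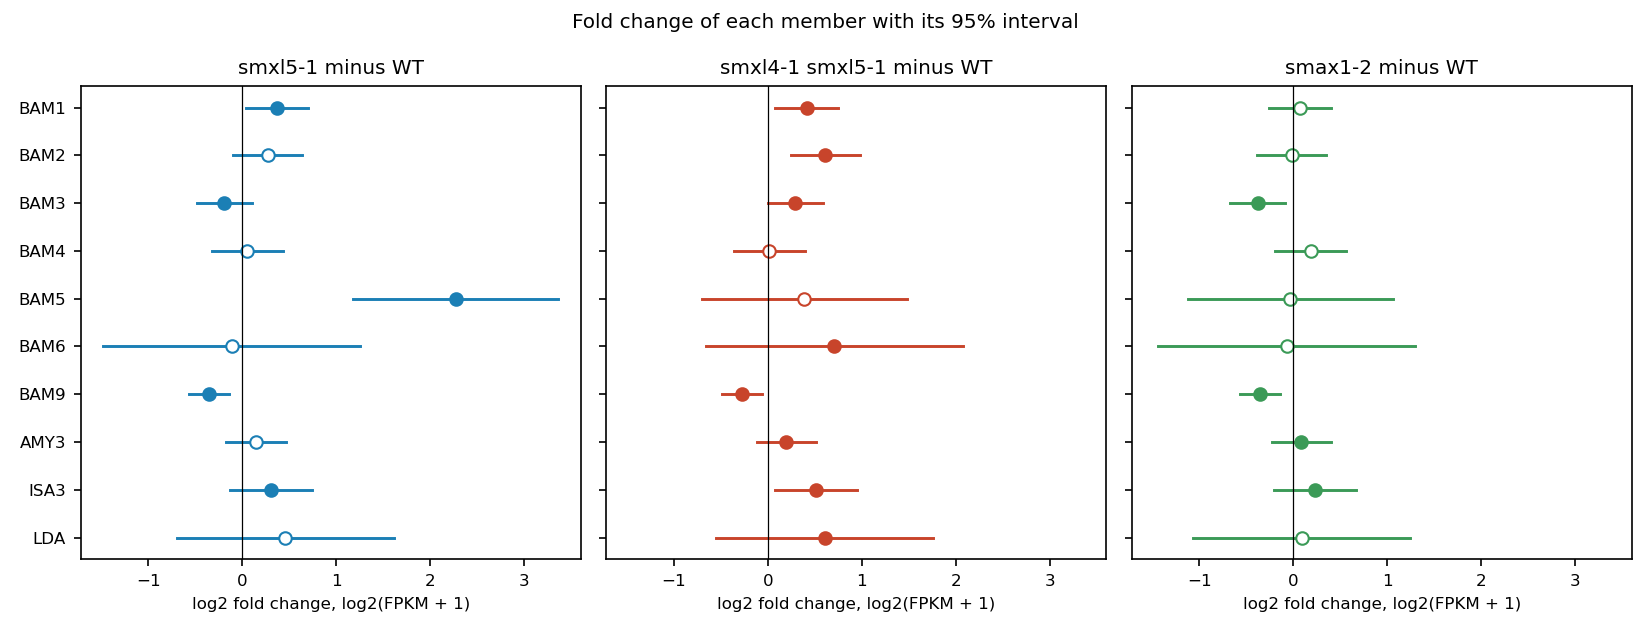
Log2 fold change of each gene against WT on the log2(FPKM + 1) scale (x axis) with its 95% interval from limma; filled points mark genes whose libraries do not overlap those of WT. In the double mutant 9 of 10 points lie above 0, in smxl5-1 7 and in smax1-2 5, and no gene was called.

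Between mutants, 4 of the 10 genes lay above smax1-2 in every double mutant library (BAM1, BAM2, BAM3, LDA) and 0 below, against 8.16% and 9.77% of all genes. The median log2 fold change was 0.38, against -0.03 over all genes. Against smxl5-1, the double mutant was apart and higher for BAM3 and BAM6 and apart and lower for BAM5, against 9.35% and 11% of all genes. For BAM6 the gap was narrow (3.19 against 3.14 FPKM) and was lost with effective length. The single mutant smxl5-1 lay apart above smax1-2 for BAM1, BAM3 and BAM5, against 8.93%, and lay apart below it for 0 of the 10, against 9.04%. For BAM3 this separation was lost without the length scaling, as given above.

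The summed level of the 7 beta-amylases was 106 to 116 FPKM in WT, 110 to 127 in smxl5-1, 119 to 153 in the double mutant and 97.9 to 102 in smax1-2. The double mutant lay above WT and smax1-2 below it, without overlap. BAM3 made up 37.8% ± 0.998 of that sum in WT, 39.2% ± 3.57 in the double mutant, 31.9% ± 3.09 in smxl5-1 and 32.7% ± 3.06 in smax1-2 (SD, n = 3). BAM9 made up 23.3% ± 1.06 in WT against 17.4% ± 0.785, 16.1% ± 1.94 and 20.4% ± 1.48 in smxl5-1, the double mutant and smax1-2. BAM5 made up 5.52% ± 1.20 in smxl5-1 and under 1% on average in the other genotypes. These shares are descriptions and were not tested.

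**Figure D4:**
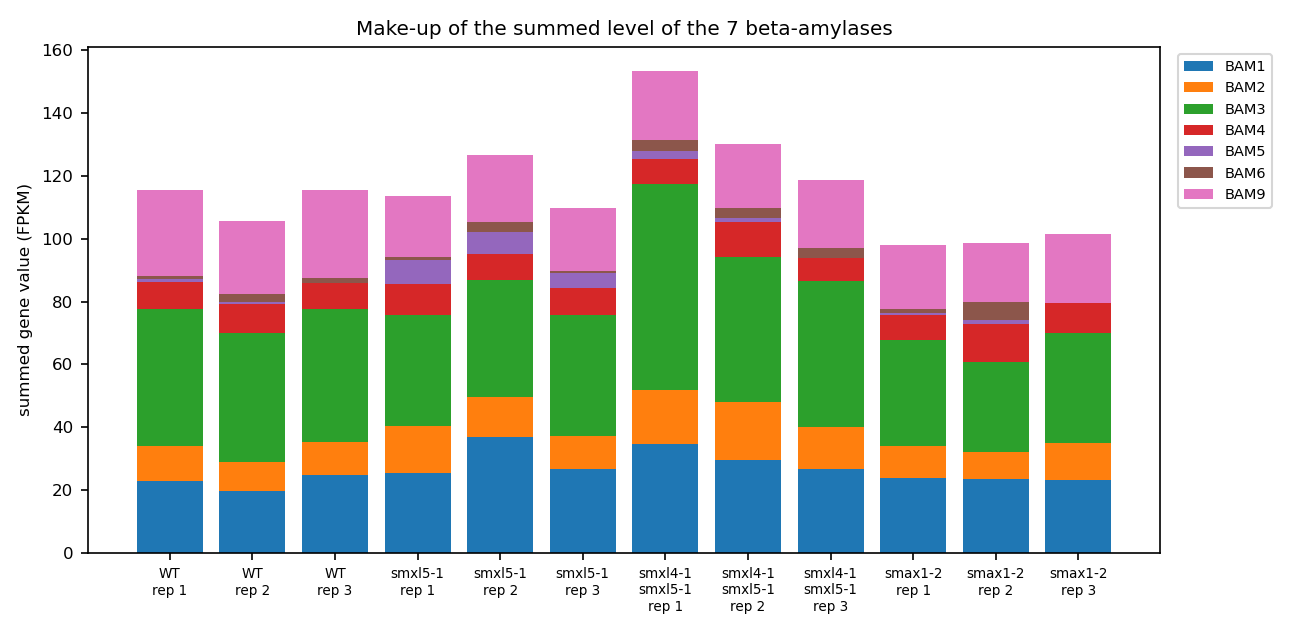
Summed FPKM of the 7 beta-amylases (y axis, from 0) in each of the 12 libraries, stacked by gene. The sum reaches 153 FPKM in double mutant replicate 1 and lies between 97.9 and 102 FPKM in smax1-2, and BAM5 is visible as a band of 4.70 to 7.57 FPKM in the smxl5-1 libraries.

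The other genes of starch breakdown were read in the same tests. Of 12 partners, which phosphorylate, dephosphorylate, transport or convert the glucans, 2 rose in the double mutant against WT and 0 fell. PHS2, the cytosolic glucan phosphorylase, went from 17.0 to 17.4 FPKM in WT to 26.0 to 31.6 FPKM (log2 fold change 0.74, SE 0.10, adjusted p = 0.00733). PWD, the phosphoglucan water dikinase that follows GWD1, went from 8.96 to 10.3 FPKM to 14 to 14.5 FPKM (0.50, SE 0.10, adjusted p = 0.0468). The PWD call was lost without any single library of the 2 groups (adjusted p 0.111 to 0.182), and that of PHS2 was kept in each case. Over all 18 alternatives, which include those of the processing, the PHS2 call was lost in 2. Its log2 fold change fell as low as 0.053. The PWD call was lost in 13 and its direction reversed in 1. The libraries of 9 of the 12 lay above WT and of 0 below, against 12.5% and 6.61% of all genes, and the median was 0.44 against 0.07; 1.13% of all genes were called. SEX4, a phosphoglucan phosphatase, and DPE2, the cytosolic enzyme that takes up maltose carbon, gave 0.76 and 0.74 without passing the test (adjusted p = 0.139 and 0.183). In smxl5-1 and smax1-2, limma called 0 of the 12 (4 and 1 at an unadjusted p under 0.05, against 12.2% and 6.77% of all genes), with medians of 0.16 and 0.20 against 0.07 and 0.09. Of the 4 in smxl5-1, 3 were higher and 1, LSF2, was lower (log2 fold change -0.34, adjusted p = 0.303). LSF2 stood at 37.3 to 44.7 FPKM there and at 43.7 to 60.4 FPKM in WT.

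Among 15 genes of starch synthesis, 2 rose in the double mutant against WT and 0 fell, where 1.13% of all genes were called, with a median of 0.27 against 0.07. APL3, a large subunit of ADP-glucose pyrophosphorylase, stood at 5.97 to 7.00 FPKM in WT and at 13.2 to 21.3 FPKM in the double mutant (log2 fold change 1.36, SE 0.22, adjusted p = 0.0160). SBE2.1, a branching enzyme, stood at 14.1 to 16.5 and at 23.1 to 27.1 FPKM (0.63, SE 0.10, adjusted p = 0.0147). Leaving out single libraries, the APL3 call was kept in 1 of 6 cases (adjusted p at most 0.0761) and the SBE2.1 call in 4 of 6 (at most 0.0701). Over all 18 alternatives the APL3 call was lost in 9 and the SBE2.1 call in 6. The log2 fold change of SBE2.1 fell as low as 0.33. APL3 stood at 12.6 to 18.5 FPKM in smxl5-1, also apart from WT, where it was not called (1.06, adjusted p = 0.0773). GBSS1, the granule-bound starch synthase that makes amylose, was called in the double mutant against smxl5-1 (1.16, adjusted p = 0.0250) and against smax1-2 (1.15, adjusted p = 0.0349), as BAM3 was in the second. SS1, a soluble starch synthase, was called in the first (0.33, adjusted p = 0.0445) and APL3 in the second (1.05, adjusted p = 0.0457). Without single libraries these adjusted p values reached 0.0750 and 0.123 for GBSS1, 0.121 for SS1 and 0.148 for APL3. In smxl5-1 and smax1-2 against WT, limma called 0 of the 15 (3 and 1 at an unadjusted p under 0.05, against 12.2% and 6.77% of all genes).

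**Figure D5:**
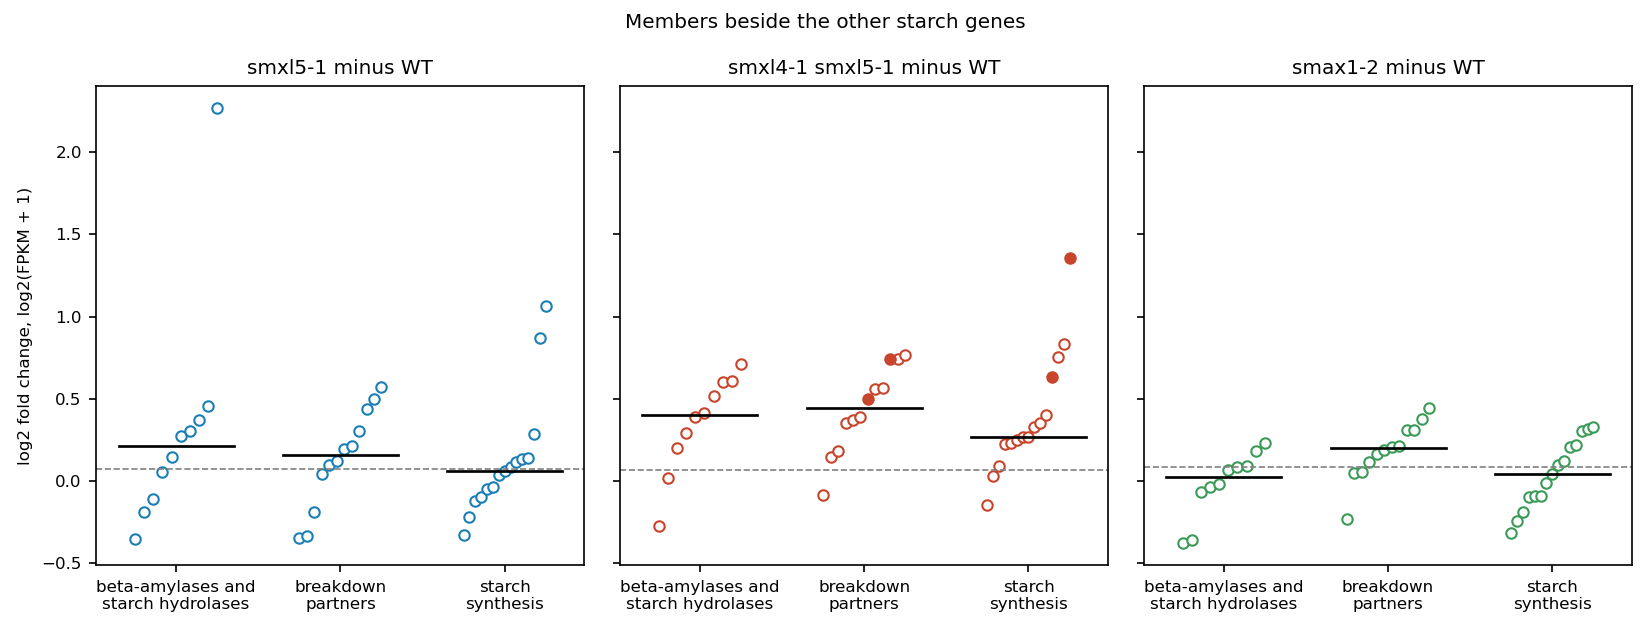
Log2 fold change against WT on the log2(FPKM + 1) scale (y axis) for the 10 hydrolase genes, 12 breakdown partners and 15 starch synthesis genes; filled points were called, black bars are list medians and the dashed line is the median of all genes tested. The called genes are PHS2, PWD, APL3 and SBE2.1, all in the double mutant.

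Of the 6 nearest relatives outside the 10 genes, AMY1 had no value, and 0 of the other 5 (BAM7, BAM8, AMY2, ISA1, ISA2) were called by limma in any comparison with WT, with 1 of them at an unadjusted p under 0.05, in the double mutant. BAM7 and BAM8, nuclear proteins that join a DNA-binding part to a beta-amylase fold, stood at 3.84 to 8.14 FPKM and at 7.37 to 10.2 FPKM, except for BAM8 in smxl5-1 replicate 1 at 33.3 FPKM. Leaf markers of photosynthesis, 5 genes from RBCS1A to LHCB5, summed to 42382 to 47074 FPKM in WT, 38843 to 42408 in smxl5-1, 45227 to 48342 in the double mutant and 44061 to 48115 in smax1-2. All 5 had a negative log2 fold change in smxl5-1 (median -0.24), and limma called 0 of the 5 against WT (0 at an unadjusted p under 0.05 too). Starch breakdown genes follow the time of day, so 11 clock genes were read as well. Their summed level was 156 to 187 FPKM in WT, 179 to 196 in smxl5-1, 190 to 221 in the double mutant and 173 to 188 in smax1-2, and limma called 0 of the 11 against WT, with 0, 2 and 1 at an unadjusted p under 0.05 in smxl5-1, the double mutant and smax1-2. The double mutant's sums thus lay above WT, as those of the beta-amylases did. Against smax1-2, where BAM3 was called, 5 of the 11 were at an unadjusted p under 0.05 in limma, 3 higher and 2 lower, against 11.9% of all genes. Against smxl5-1 the double mutant also had 5, 3 higher and 2 lower, against 17.1%. A sum does not show such opposite moves, and 0 of the 11 were called in either comparison. The part of the clock in the hydrolase values was not tested. Among the phloem markers, SWEET12, a sucrose exporter, stood at 9.23 to 12.7 FPKM in WT and at 35 to 45.6 FPKM in the double mutant (1.73, SE 0.15, adjusted p = 5.9e-04), the 1 call of that list against WT. SUC2 lay below WT in all double mutant libraries without being called (-0.55, adjusted p = 0.167). Of the 12 phloem markers tested there, 2 were higher and 2 lower at an unadjusted p under 0.05, and the median was -0.02.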

How the data were processed

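The data are 12 tables, 1 per library of polyadenylated RNA. Per the submitters' processing notes reads were aligned with TopHat2 2.0.14 and the build is TAIR10; for the assembler, its settings, the annotation release and the strand protocol nothing is given in the sources used. Per the file headers each row is 1 assembled transcript piece with its FPKM, bounds and length, in the layout Cuffcompare writes. The authors' FPKM is per kilobase of the piece; the planned count test could not be used, so the plan's limma branch applied.

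From there, each gene's value summed FPKM × (piece length, at most the reference length) / reference length over pieces matching, contained in, sharing a junction with or overlapping a reference transcript (345442 of 353616 pieces). limma 3.58.1 (limma-trend, R 4.3.3) was fitted to log2(value + 1) of the 19656 genes reaching 1 FPKM in 3 or more libraries, all 12 libraries in 1 fit, with Benjamini-Hochberg adjustment. The script was tested on simulated data. Biological replicates are separate pools per the labels' protocols. Titles gave the replicate numbers; the deposited file names number double mutant replicates 1 and 2 the other way round, so those 2 numbers are uncertain, not their genotype. Python 3.11.15, numpy 2.4.6, pandas 2.3.3 and matplotlib 3.10.9 were used.

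All 10 genes are named. From each other list the called genes, and up to 3 with the smallest F test p, could be named; genes like BAM5 were the 3 of highest correlation. BAM7, BAM8 and pieces singled out for length were chosen after their values were seen. SEX4 and DPE2 were named outside the naming rule, and the phloem sum without SWEET11 and SWEET12 was not planned. The 10 genes and the lists were chosen with earlier results of these data known. Upstream windows are 200 bases of TAIR10.1.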

Additional observations from a re-analysis of the deposited data

Results flagged for a closer look

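BAM3 lay on opposite sides of WT in the 2 genotypes that carry smxl5-1: every double mutant library was above WT and every smxl5-1 library below it. The log2 difference between them was 0.48 (adjusted p = 0.0823, limma), so the difference itself did not pass the threshold. The effects of the double mutant and of smax1-2 on BAM3 also had opposite signs, and their difference of 0.67 did pass (adjusted p = 0.0357), with the dependence on single libraries and on the processing given above (0.225 with a plain sum of FPKM).

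Pieces inside introns, which entered no gene value, were listed for 2 of the 10 genes and in no WT library. AMY3 had a piece of 207 bases at 15.7 FPKM in smax1-2 replicate 2, and BAM4 had a piece of 110 bases at 209 FPKM in double mutant replicate 2. Each was seen in 1 library of its group.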

How the results depend on the processing

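Of 288 recomputed fold changes (16 with an unadjusted p under 0.05, each under its alternatives), 269 kept direction and side of the threshold, 12 lost it, 6 gained it and 1 reversed. Only 1 of the 16 was called at the start, so for the others keeping the side means staying uncalled. All 12 losses were of that call, BAM3 in the double mutant against smax1-2, which had 18 alternatives. BAM2 in the double mutant against smax1-2 became -0.66 with only complete and contained pieces, and PWD in the double mutant against WT became -0.083 with a plain sum of FPKM. For BAM2 that setting drops the only piece of double mutant replicate 3 (13.5 FPKM), which held a new junction. The reversed sign of BAM2 is therefore not read. In the F test the number of the 10 genes called was 0, but 1 with effective length or the replicate block (BAM5 each time) and 2 with pieces of at least 300 bases (BAM5, BAM6). For smxl5-1 against WT it was 1 with effective length or the 300-base minimum (BAM5). For the double mutant against smxl5-1 it was 1 with effective length or the replicate block (BAM5), 2 with the 300-base minimum (BAM5, LDA), and 0 to 1 leaving out single libraries. For the double mutant against smax1-2 it fell from 1 to 0 with a plain sum, only complete and contained pieces, quantile or median-of-ratios scaling, a fit on the 2 groups alone, the replicate block, or without both libraries of most complete pieces. It was 2 with the 300-base minimum (BAM3, BAM6), and 0 to 1 leaving out single libraries. For smxl5-1 against smax1-2 it was 1 with effective length (BAM5). With effective length BAM5 met the minimum of 1 FPKM only through smxl5-1, as given above, so its calls there are not read. With a plain sum BAM5 came near no threshold (adjusted p at least 0.740). Beyond the dropped BAM2 piece, the cause of these moves was not tested. The 300-base minimum itself sets BAM6 to 0 in smax1-2 replicate 1. The 300-base minimum and leaving out both libraries were chosen after seeing the data. Calls over all genes moved more: 405 (74 to 693) in the F test, 69 (9 to 126) for smxl5-1, 223 (58 to 350) for the double mutant and 7 (3 to 14) for smax1-2 against WT. Between mutants they were 588 (58 to 1069) for the double mutant against smxl5-1, 304 (77 to 433) against smax1-2, and 44 (13 to 90) for smxl5-1 against smax1-2. Scaling moved the median of all genes in smax1-2 against WT from 0.09 to -0.02. Same-numbered replicates did not deviate together (correlations -0.102 to 0.0671 over 18 pairs, and -0.0668 to 0.167 over 36 pairs of unlike number). Since the numbers of double mutant replicates 1 and 2 are uncertain, neither these correlations nor the replicate block can settle whether replicates were paired. FPKM without counts leaves depth unknown, and 3 libraries per genotype limit the precision.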
